A study of Mus musculus with 12 samples.

Results

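In the adult mouse subventricular zone, activated neural stem cells were compared with quiescent stem cells taken 48 h after irradiation, across all genes that the array names by a single symbol. The comparison used the 3 arrays titled as activated that hold values (replicates 1 to 3) and the 4 arrays titled as quiescent after irradiation (replicates 1 to 4), which are 7 of the 12 samples of the series. It covered 18193 genes. All cells came from male C57B6J mice and were sorted by flow cytometry from fresh tissue. The activated cells carry no mention of irradiation, so cell state and irradiation differ together between these groups and their parts cannot be told apart in this comparison alone. For that reason the 3 unirradiated quiescent arrays that hold values (replicates 1, 2 and 4) are set beside them throughout. The sources used here do not state the dose of radiation, the antibodies of the sort, how old the mice were or how many mice made up a sample. Nothing says that replicates came from separate animals, so every p-value reflects differences among these arrays that may be technical in part. RNA was amplified with the NuGEN Ovation Pico kit and hybridised to the Affymetrix MOE 430 2.0 array.

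The subventricular zone lines the lateral ventricles and keeps astrocyte-like stem cells into adulthood. Most of them rest outside the cell cycle and carry the genes of astroglia, among them glutamate transporters, lipid-handling enzymes and receptors for niche signals. Activated stem cells re-enter the cell cycle, carry the epidermal growth factor receptor, and give rise to transit amplifying cells and then to neuroblasts, which migrate to the olfactory bulb. Ionising radiation kills dividing cells of the niche, while quiescent stem cells survive and can repopulate it.

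Against irradiated quiescent cells, activated cells had most measured genes of mitosis and replication, and part of those of ribosomes, splicing and chromatin, at a higher level. They had most astroglial markers at a lower level. Of the 18193 genes, 1288 passed the test (limma, Benjamini-Hochberg adjusted p under 0.05), which is 7.08% of all genes. In activated cells 619 of them were higher (3.4% of all genes) and 669 were lower (3.68%). The log2 differences, taken on log2(intensity + 16), ran from 8.68 to −9.32, with a median of 3.14 among the genes called higher and −3.18 among those called lower. That scale understates the change of a gene close to the lower limit of the array, where intensities of at most 10 were treated as near the limit. In 2950 genes (16.2%) the activated arrays lay all above or all below the irradiated arrays, and all 1288 called genes were among them.

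The arrays were alike in scale. On the 7 compared arrays the 75th percentile of intensity over all probe sets lay between 83 and 101, and 56.6% to 59.2% of probe sets read at most 10. Across genes, which are not independent replicates, Pearson's r was 0.866 to 0.917 between activated arrays and 0.827 to 0.872 between irradiated arrays. Between an activated and an irradiated array it was 0.701 to 0.779. With 3 and 4 arrays per group, precision is limited by that number. In these bulk samples, fewer cells of a type and less RNA per cell cannot be told apart.

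The calls had a lopsided form. Among the 619 genes called higher, 177 were near the lower limit on all 4 irradiated arrays. Among the 669 called lower, 36 were near it on all 3 activated arrays. Genes with a mean intensity above 100 in both groups numbered 200 of those higher and 368 of those lower. The rises thus included more genes that read near the limit throughout the other group than the falls did. The fit pools each gene's spread over all 3 groups. Readings tied at the limit hardly vary, so for such genes the SE and p can understate the spread within the group that reads high. The mitotic gene Ube2c and the thyroid hormone carrier Ttr stand at the ends of the range, and Glul and Nfix are graded examples.

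**Figure D1:**
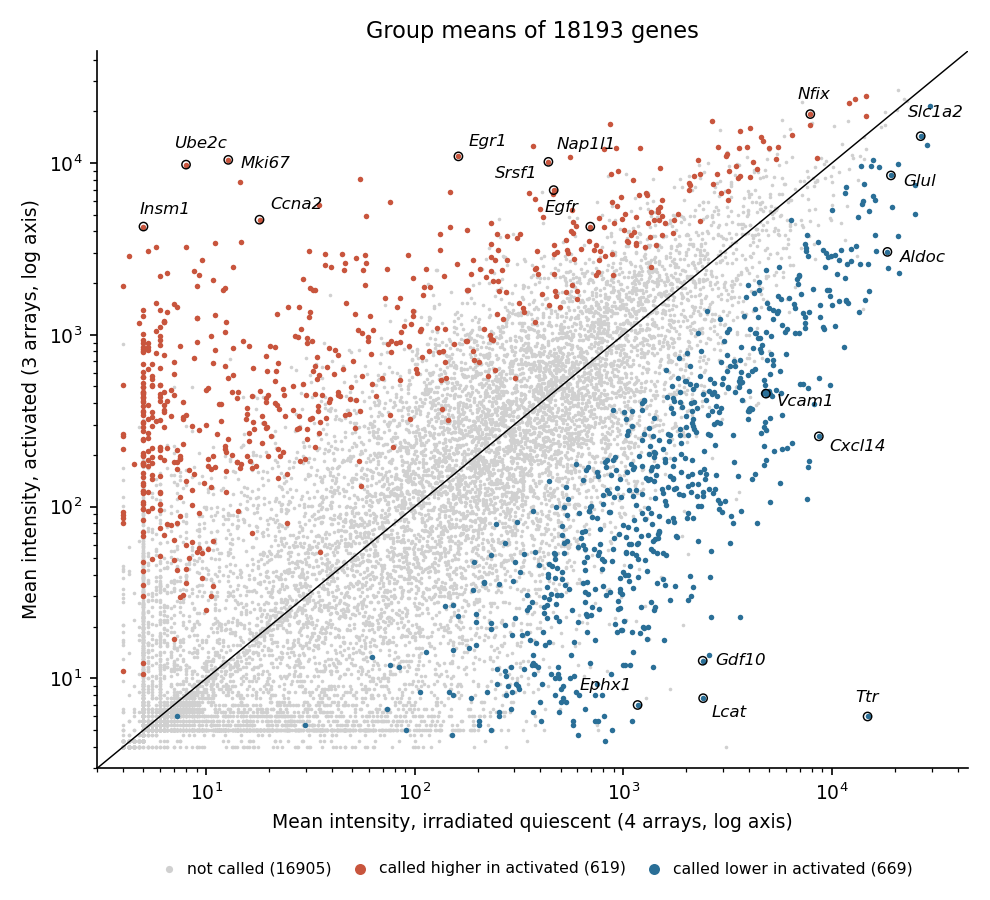
Mean intensity of each of 18193 genes on the 4 irradiated quiescent arrays (horizontal, log axis) against its mean on the 3 activated arrays (vertical, log axis). Red points are the 619 genes called higher in activated cells and blue points the 669 called lower, the line marks equality, and many red points lie against the left edge, at the lower limit in irradiated cells, while most blue points lie to its right.

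Genes were grouped into 42 lists by textbook role. Mitosis, replication, chromatin, splicing and ribosome lists had members called higher and none called lower. Lists of transmitter receptors, adhesion, lipid, glycolysis and lysosome genes had members called lower and none called higher. Astroglial markers had 54 falls beside 3 rises. Lists for oxidative phosphorylation, p53 targets, apoptosis and inflammatory genes had at most 4 calls each. Shares higher and lower were 5% and 5% for p53 targets and 6.25% and 3.125% for apoptosis. Oxidative phosphorylation had 0% and 1.69%, inflammatory genes 0% and 0%, and all genes 3.4% and 3.68%. In several lists the rarer direction had a share near that of all genes. Rises made up 4% of astroglial markers and 2.7% of glutathione and redox genes. Falls made up 4.76% of activated stem cell markers, 4.35% of neuroblast markers and 3.51% of neuron subtype and stem cell factors. They made up 3.33% of nucleotide synthesis and 2.94% of immediate early genes.

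**Figure D2:**
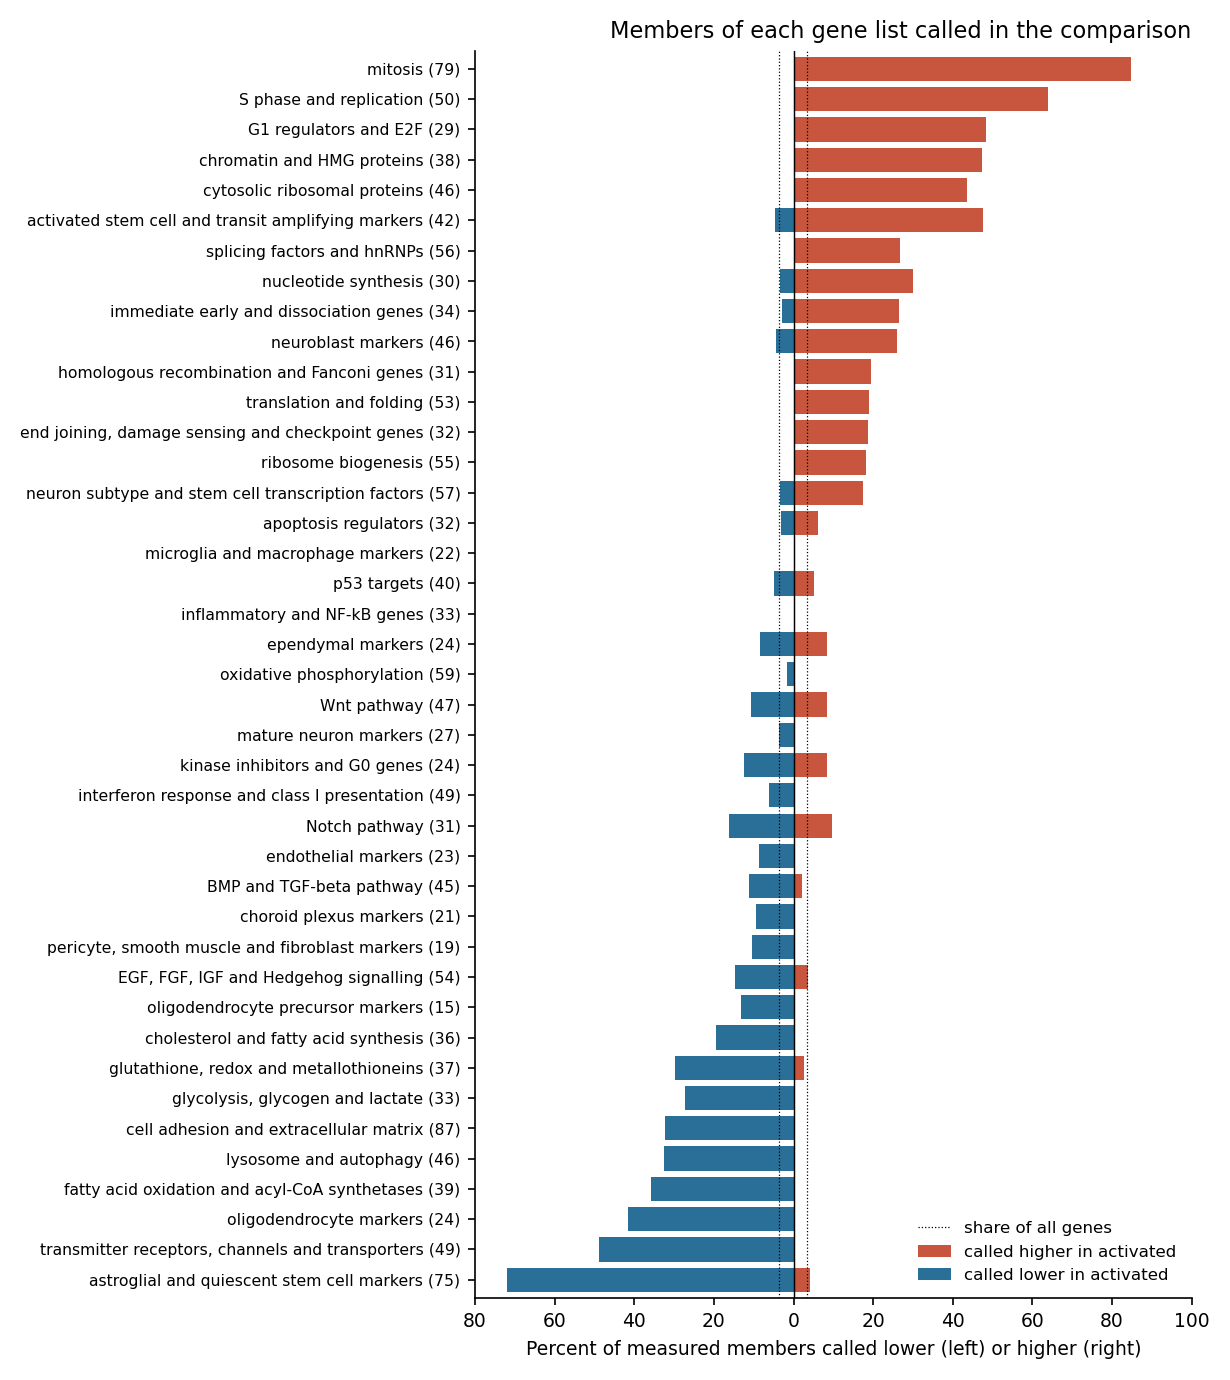
Share of the measured members of each gene list called higher (red, to the right) or lower (blue, to the left) in activated than in irradiated quiescent cells, in percent, for the 41 lists with at least 15 measured members. Dotted lines give the shares over all 18193 genes, 3.4% and 3.68%; mitosis genes reach farthest to the right and astroglial genes farthest to the left.

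Genes of mitosis had the largest share of members called in 1 direction among the lists. Of 79 measured members, 67 rose, none fell and 12 did not pass the test, with a median log2 difference of 4.52 against 0 over all genes. Their promoters often carry CCAAT boxes and a cell cycle homology element, elements through which the DREAM and MuvB complexes are known to restrain these genes outside the cycle. The promoters of the 3 called members with the largest rise that hold both elements are printed here because these genes moved together. Each is the RefSeq sequence of build GRCm38.p6, from 250 bases before the annotated start to 30 bases after it, 5′ to 3′ on the gene's own strand. Capitals mark CCAAT, which appears as ATTGG when it lies on the other strand, and the cell cycle homology element, searched on both strands in its common form TTTGAA and in the variant form that reads TTCGAA. The first is Ube2c (chr2:164769679-164769958, plus strand), the second Mki67 (chr7:135716350-135716629, minus strand) and the last Cdca8 (chr4:124936888-124937167, minus strand).
Ube2c: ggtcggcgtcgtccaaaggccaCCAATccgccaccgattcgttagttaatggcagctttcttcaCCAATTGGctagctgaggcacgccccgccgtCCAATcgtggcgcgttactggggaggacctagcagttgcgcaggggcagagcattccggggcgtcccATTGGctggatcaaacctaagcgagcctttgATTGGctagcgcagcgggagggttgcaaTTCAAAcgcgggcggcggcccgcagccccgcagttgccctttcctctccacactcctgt
Mki67: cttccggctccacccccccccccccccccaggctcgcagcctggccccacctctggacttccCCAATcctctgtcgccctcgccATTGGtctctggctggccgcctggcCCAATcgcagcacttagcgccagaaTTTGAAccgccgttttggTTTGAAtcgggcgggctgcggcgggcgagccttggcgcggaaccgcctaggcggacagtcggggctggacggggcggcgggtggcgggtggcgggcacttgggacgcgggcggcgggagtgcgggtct
Cdca8: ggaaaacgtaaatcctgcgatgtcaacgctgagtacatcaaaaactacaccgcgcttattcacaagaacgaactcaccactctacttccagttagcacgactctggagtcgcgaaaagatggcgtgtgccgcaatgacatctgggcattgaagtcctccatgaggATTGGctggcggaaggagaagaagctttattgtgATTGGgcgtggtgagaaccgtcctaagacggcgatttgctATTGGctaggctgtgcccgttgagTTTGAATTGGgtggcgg
In Ube2c, the second CCAAT overlaps an ATTGG in the run CCAATTGG, and the element TTCAAA, which is TTTGAA on the other strand, ends 24 bases before the start. In Mki67 the element occurs 2 times, and in Cdca8 it overlaps the last ATTGG, just after the start. Of 53 called mitosis genes with a promoter in the table, 35 hold both motifs (66.04%), against 8.614% of 27025 genes of the table and 7.051% of the 14452 measured genes with a promoter. Among all 64 measured mitosis genes with a promoter, called or not, 39 hold both (60.94%). The share among called genes was thus close to that of their whole list. These shares count a gene when any of its promoters in the table holds both motifs, and those promoters run further past the start than the printed sequences. A match describes letters in the searched sequence and is no evidence of a bound site.

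The leading mitosis genes went from the lower limit to high intensity. Ube2c, which encodes the ubiquitin-conjugating enzyme of the anaphase-promoting complex, read 9116, 11384 and 8839 on the activated arrays and 6, 14, 6 and 6 on the irradiated arrays. All activated arrays were far above all irradiated arrays, which read like the unirradiated arrays at 6, 6 and 9. The log2 difference was 8.68 ± 0.14 (SE, adjusted p = 5.66e-08). Mki67, the proliferation antigen that coats mitotic chromosomes, read 9566, 10565 and 11152 against 13, 18, 9 and 11. No values overlapped, and the difference was 8.51 ± 0.54 (adjusted p = 0.000127). The unirradiated arrays read 77, 161 and 12 for Mki67, so 2 of those 3 were above every irradiated array. The difference between the quiescent groups was −1.44 ± 0.54, and it did not pass the test across all genes (adjusted p = 0.97).

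The other named mitosis genes followed the same form. Cdca8, a subunit of the chromosomal passenger complex, read 5454, 8136 and 9750 in activated cells against 10, 12, 28 and 8 (8.0 ± 0.41, adjusted p = 3.88e-05). Its kinase Aurkb read 1319, 1658 and 1372 against 8, 8, 7 and 6. For both, the lowest activated value was far above the highest irradiated value. Ccna2, the cyclin of S phase and early mitosis, read 4415, 5220 and 4390 against 7, 14, 37 and 14 (7.17 ± 0.39, adjusted p = 5.28e-05). Top2a, the topoisomerase that untangles sister chromatids, varied among activated arrays, with 4401, 2992 and 1266, and read 4 or 5 on every irradiated array. Birc5, another passenger subunit, also varied, at 470, 1922 and 558 against 6 on each irradiated array. The mitotic kinase Pbk had a mean of 3232 ± 274 (SD, n = 3), and the kinase Melk one of 461 ± 53.3. Both read at most 8 on every irradiated array. Cdca3, a trigger of mitotic entry, ranged from 1229 to 1493 against 5 on all 4 irradiated arrays, with a difference of 6.06 ± 0.06 (adjusted p = 9.19e-09). Aspm, the spindle pole protein, reached 4542, 2487 and 2233 against 5 or 6.

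Genes of DNA replication rose with them. Of 50 measured S phase members, 32 rose, none fell and 18 did not pass the test, with a median log2 difference of 3.50. Promoters of replication genes often carry E2F sites. These were searched as TTTCCCGC, TTTGGCGC, TTTCGCGC or TTTGCCGC on both strands, and the promoters of the 2 called members with the largest rise that hold a site are printed from the same RefSeq table with the sites in capitals. Mcm6 lies at chr1:128359676-128359955 on the minus strand and Mcm5 at chr8:75109259-75109538 on the plus strand.
Mcm6: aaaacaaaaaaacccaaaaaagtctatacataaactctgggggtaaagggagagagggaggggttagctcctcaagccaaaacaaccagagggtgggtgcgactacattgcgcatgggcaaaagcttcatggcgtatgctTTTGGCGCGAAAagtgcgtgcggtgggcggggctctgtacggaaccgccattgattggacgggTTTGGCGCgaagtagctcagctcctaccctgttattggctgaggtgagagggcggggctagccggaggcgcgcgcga
Mcm5: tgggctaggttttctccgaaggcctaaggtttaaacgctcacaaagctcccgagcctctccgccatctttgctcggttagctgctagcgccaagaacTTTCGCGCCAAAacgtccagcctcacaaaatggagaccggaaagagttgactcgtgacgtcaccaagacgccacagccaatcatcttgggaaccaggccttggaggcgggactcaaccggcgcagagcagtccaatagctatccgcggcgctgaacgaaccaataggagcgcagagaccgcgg
In each, the run of 12 capitals holds 1 site on either strand, overlapping by 4 bases, and Mcm6 has another site nearer the start. Counted over the same longer promoters, a site occurs in 11 of 28 called S phase genes with a promoter (39.29%). The shares were 2.605% of all 27025 genes and 3.806% of the measured genes. Among all 40 measured S phase genes with a promoter, called or not, 15 hold a site (37.5%). The share among called genes was thus close to that of their whole list.

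Mcm5 and Mcm6 encode subunits of the replicative helicase. Mcm5 read 2563, 2369 and 2150 in activated cells against 10, 10, 9 and 6 in irradiated cells (6.59 ± 0.09, adjusted p = 2.05e-08). Mcm6 read 4196, 6126 and 6798 against 12, 10, 7 and 110 (7.20 ± 0.99, adjusted p = 0.00483). For each, the groups were far apart, though irradiated array 4 was well above the others for Mcm6, as was unirradiated array 4 at 334. Ung, the uracil glycosylase, read 1844, 2789 and 1617 against 23, 8, 6 and 6. Timeless, a fork protection factor, read 1279, 1422 and 1053 against 5, 5, 21 and 5. The kinase Cdc7, which fires origins, had a mean of 366 ± 55.2 (SD, n = 3) against 6.25 ± 0.5 (n = 4), and no values overlapped for any of these 3 genes. The chromatin assembly subunit Chaf1b had a mean of 279 ± 57.4 against 9.25 ± 0.5.

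Nucleotide synthesis genes mostly rose where they passed the test. Of 30 measured members, 9 rose, 1 fell and 20 did not pass the test, with a median log2 difference of 2.49. The count of rises was 5 without activated array 2, without activated array 3 or without irradiated array 2. It was 14 with the dimmest 50% of genes left out and 15 with the mean of a gene's probe sets. Rrm2, the S phase subunit of ribonucleotide reductase, read 7166, 8547 and 8597 in activated cells against 5, 5, 169 and 40 (7.45 ± 0.74, adjusted p = 0.00107). All activated arrays were far above, while the unirradiated arrays lay between the groups at 394, 283 and 498. The mitochondrial folate enzyme Mthfd2 read 476, 338 and 765 against 5 on each irradiated array. Its partner Mthfd1l had a mean of 180 ± 14 against 5.5 ± 0.577. Thymidine kinase Tk1 read 861, 283 and 288 against 12, 5, 5 and 5, and the CTP synthase Ctps read 341, 510 and 1212 against 9 to 12. The member that fell was Phgdh, the first enzyme of serine synthesis and an abundant astroglial enzyme, with 4152, 5821 and 8037 against 13394, 15322, 14059 and 13246 (−1.27 ± 0.22, adjusted p = 0.0128). With the dimmest 50% of genes left out, Phgdh no longer passed (adjusted p = 0.0597).

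Regulators of G1 gave rises and no fall, whereas cell cycle inhibitors gave both. Of 29 measured G1 and E2F genes, 14 rose, none fell and 15 did not pass the test (median 2.42). Cdk6, a kinase of the restriction point, read 425, 936 and 1435 against 5 on every irradiated and unirradiated array (5.34 ± 0.35, adjusted p = 0.000135). Its partner Ccnd1 read 555, 230 and 396 against 10, 12, 10 and 14 (3.82 ± 0.26, adjusted p = 0.000196). Neither gene had overlapping groups. Ccnd2, the other D-type cyclin of neural progenitors, read 16228, 16552 and 18040 against 418, 387, 1373 and 1263 (4.50 ± 0.87, adjusted p = 0.0209). It was high on every activated array, but it failed the test without any of 5 arrays (activated 1, 2 or 3, irradiated 1 or 2), with an adjusted p of up to 0.0734. The transcription factor E2f2 had a mean of 196 ± 85 against 5 ± 0. Lin9, of the MuvB core, read 894, 945 and 230 against 10, 8, 5 and 5. Mycl, a MYC family factor, read 91, 222 and 198 against 16, 11, 12 and 5 (2.72 ± 0.28, adjusted p = 0.00123), but did not pass with the mean of its probe sets (adjusted p = 0.0523).

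Of 24 inhibitors and G0 genes, 2 rose, 3 fell and 19 did not pass the test, with a median of −0.13. That is 8.33% higher and 12.5% lower, against 3.4% and 3.68% of all genes. The risers were Cdkn2c, an inhibitor of Cdk4 and Cdk6, and the antiproliferative gene Btg2. Cdkn2c read 508, 707 and 409 in activated cells against 15, 23, 12 and 35 (3.91 ± 0.36, adjusted p = 0.000766). Btg2 read 858, 1026 and 445 against 51, 51, 72 and 73 (3.28 ± 0.32, adjusted p = 0.000978). Both were higher on every activated array than on any irradiated array. Lrig1, a restrainer of growth factor receptors, fell, with 399, 381 and 97 against 4135, 3321, 4175 and 7312 (−4.10 ± 0.49, adjusted p = 0.00259). Gas6, a ligand of TAM receptors, read 7, 14 and 9 against 334, 379, 304 and 853 (−4.10 ± 0.53, adjusted p = 0.00375). Sesn1, a stress-induced inhibitor of TORC1, read 73, 350 and 88 against 618, 1289, 1521 and 1087 (−2.86 ± 0.58, adjusted p = 0.026). It did not pass without any of 5 arrays (activated 1 or 3, irradiated 2, 3 or 4), with an adjusted p of up to 0.0944, or with the arrays of both compared groups alone in the fit (0.067). The classical inhibitors did not pass the test. Cdkn1b read 2150, 2273 and 2260 against 758, 1049, 1188 and 1854 (0.94 ± 0.41, adjusted p = 0.306). Cdkn1a, the p21 gene, read 489, 177 and 56 against 36, 95, 459 and 172, so the groups overlapped (0.35 ± 0.87, adjusted p = 1), while the unirradiated arrays read 40, 20 and 30.

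Chromatin genes gave rises and no fall. Of 38 measured members, 18 rose, none fell and 20 did not pass the test (median 2.16). The count was 11 without activated array 1 or 3 and 8 without activated array 2. H2ax, the histone variant phosphorylated at breaks, read 4572, 3786 and 4287 in activated cells against 26, 163, 97 and 303 (5.04 ± 0.62, adjusted p = 0.00296). The unirradiated arrays read 374, 271 and 208, so 3 of 4 irradiated arrays were below all of them. Hmgb2, a high mobility group protein of progenitors, had a mean of 12283 ± 1448 (SD, n = 3) against 919 ± 296 (n = 4), a 13.4-fold ratio of means. The methyltransferase Suv39h2 read 178, 348 and 543 against 6, 7, 6 and 6. The helicase Hells had a mean of 134 ± 59 against 5 ± 0. The nucleosome-binding Hmgn5 read 513, 1653 and 511 against 30, 48, 22 and 22.

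Repair genes that passed the test were all higher in activated cells. Of 31 homologous recombination and Fanconi genes, 6 rose, none fell and 25 did not pass the test (median 1.39). That count was 3 without activated array 2, irradiated array 1, 3 or 4, or unirradiated array 1 or 2, and 11 without activated array 3. It was also 3 with a pseudocount of 64 or with the arrays of both compared groups alone in the fit. Brca1, a mediator of recombination, read 558, 1357 and 595 in activated cells against 7, 8, 33 and 6 (4.82 ± 0.39, adjusted p = 0.000393). Fancd2, of the Fanconi pathway, read 55, 89 and 108 against 5 on every irradiated array. Neither gene had an irradiated value near its activated values.

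Of 32 end joining, damage sensing and checkpoint genes, 6 rose and 26 did not pass (median 1.24), with 3 rises without activated array 3. Wee1, the kinase that holds back mitotic entry, read 339, 871 and 474 against 6, 22, 18 and 5 (4.27 ± 0.37, adjusted p = 0.000539). Mdc1, which binds phosphorylated H2ax, read 595, 710 and 542 against 13, 7, 97 and 13 (4.03 ± 0.52, adjusted p = 0.00372). For both, the highest irradiated array was far below the lowest activated array. The checkpoint kinase Chek1 read 172, 744 and 485 against 5 on all irradiated arrays, and 5, 137 and 5 on the unirradiated ones (4.31 ± 0.77, adjusted p = 0.0159). Its call was lost without activated array 2 (adjusted p = 0.0652) or activated array 3 (0.0592).

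The genes of protein synthesis named here read well above the lower limit in both groups and differed by degree. Of 80 listed cytosolic ribosomal protein genes, 46 were measured, and 2 of these were near the limit on all 7 arrays. Of the 46 measured genes, 20 rose, none fell and 26 did not pass the test, with a median log2 difference of 1.33. The count was 12 without activated array 1, 11 without activated array 2 and 13 with the dimmest 50% of genes left out. Rps7 read 6760, 5731 and 5281 in activated cells against 805, 778, 877 and 1052 (2.73 ± 0.19, adjusted p = 0.00022). The unirradiated arrays were in between for Rps7, at 1812, 1091 and 1686. Rps19 had a mean of 4767 ± 731 (SD, n = 3) against 760 ± 185 (n = 4), a 6.27-fold ratio of means. For Rps3 the means were 14128 ± 1160 and 4566 ± 829, and for Rps2 4665 ± 197 and 1756 ± 289. Ribosomal protein genes have many processed pseudogenes, so their probe sets may also take signal from near-identical copies.

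Of 55 ribosome biogenesis genes, 10 rose, none fell and 45 did not pass (median 1.31). The count was 5 without activated array 2, 4 without activated array 3 and 6 without irradiated array 1. Nucleolin, Ncl, read 7057, 6529 and 6487 against 1127, 1011, 1767 and 1231 (2.40 ± 0.19, adjusted p = 0.000354), with no overlap. Nucleophosmin, Npm1, read 13061, 11980 and 11760 against 5562, 4608, 3975 and 5877 (1.31 ± 0.23, adjusted p = 0.0132). Its call was lost without activated array 1 (adjusted p = 0.0515) and with the dimmest 50% of genes left out (0.0552). The unirradiated arrays were lower again for Npm1, at 2348, 1319 and 2287.

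Translation and folding genes gave 10 rises, no falls and 43 that did not pass, of 53 (median 1.20). The count was 3 without activated array 1 or 2, 4 without activated array 3 or irradiated array 3, and 6 without irradiated array 2. The mitochondrial chaperone Hspa9 read 4047, 4110 and 3026 against 1253, 1441, 1262 and 1382 (1.46 ± 0.13, adjusted p = 0.000607), but did not pass with the mean of its probe sets (adjusted p = 0.0731). The cytosolic chaperone Hsp90aa1 had means of 11028 ± 465 and 3091 ± 1010, a 3.57-fold ratio. Elongation factor Eef1b2 had means of 5152 ± 485 and 1360 ± 99.4.

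Splicing factors gave rises and no fall. Of 56 measured members, 15 rose, none fell and 41 did not pass the test, and 55 of 56 had a positive log2 difference (median 1.91). The count was 9 without activated array 2, 24 with either filter on low values and 26 with the mean of a gene's probe sets. Srsf1, a founding SR protein, read 7256, 8270 and 5327 in activated cells against 548, 418, 258 and 628 (3.91 ± 0.33, adjusted p = 0.000465). All 3 groups were apart for Srsf1, since the unirradiated arrays read 1872, 1566 and 2557. Srsf3 had means of 5363 ± 1089 (SD, n = 3) and 1462 ± 204 (n = 4), a 3.67-fold ratio. The ribonucleoprotein Hnrnpu read 8103, 8742 and 8287 against 3776, 3764, 3357 and 3619 (1.20 ± 0.08, adjusted p = 0.000211), although its adjusted p was 0.0524 with the dimmest 50% of genes left out. Hnrnph1 had means of 7469 ± 573 and 2074 ± 642.

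Among all genes with a mean above 100 in both groups, the histone chaperone Nap1l1 was a leading rise. It read 9769, 10094 and 10595 in activated cells against 126, 700, 545 and 376, a 23.2-fold ratio of means (4.72 ± 0.60, adjusted p = 0.00323). Its unirradiated arrays read 886, 2782 and 1655, above every irradiated array. Banf1, which bridges chromatin to the nuclear envelope, read 3840, 2855 and 2637 against 97, 70, 300 and 59 (4.65 ± 0.66, adjusted p = 0.00547). The nucleoporin Nup62 read 2670, 4275 and 4632 against 197, 51, 237 and 45 (4.95 ± 0.74, adjusted p = 0.00737).

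The astroglial programme was lower in activated cells. Of 75 measured astroglial and quiescent stem cell markers, 54 fell, 3 rose and 18 did not pass the test, with a median log2 difference of −2.65. Lcat, a lipoprotein enzyme secreted by astrocytes, read 11, 6 and 6 in activated cells against 2213, 2363, 2109 and 2956 in irradiated cells (−6.67 ± 0.18, adjusted p = 1.13e-06). The growth factor Gdf10 read 5, 27 and 6 against 1623, 1695, 2628 and 3650 (−6.40 ± 0.36, adjusted p = 6.82e-05). For both, at least 2 activated arrays read near the lower limit, and every quiescent array was high. The chemokine Cxcl14 fell as far but varied among activated arrays, at 728, 34 and 7 against 10151, 10561, 7451 and 6409 (−6.48 ± 1.07, adjusted p = 0.0109).

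Other astroglial genes were lowered but still plainly present. Vcam1, the adhesion molecule that anchors quiescent stem cells in the niche, read 536, 465 and 362 against 5401, 5387, 4451 and 4041 (−3.37 ± 0.16, adjusted p = 2.35e-05). The receptor Fgfr3 read 269, 128 and 148 against 3399, 3553, 3101 and 3503 (−4.17 ± 0.22, adjusted p = 4.83e-05). No activated array came near an irradiated array for either gene. Glutamine synthetase, Glul, read 8566, 9265 and 7555 against 19940, 18924, 18721 and 19039 (−1.18 ± 0.06, adjusted p = 5.37e-05), though it just failed with the dimmest 50% of genes left out (adjusted p = 0.0549). Groups were apart here too, by a smaller step. The glycolytic isoform Aldoc had a mean of 3037 ± 1058 (SD, n = 3) against 18426 ± 855 (n = 4), a 6.07-fold ratio. Of the glutamate transporters, Slc1a3 fell 3.92-fold, from 12368 ± 1258 to 3152 ± 804. Slc1a2 read 16871, 12532 and 13568 against 27506, 26330, 26003 and 26601 (−0.90 ± 0.09, adjusted p = 0.00125) and did not pass with the dimmest 50% of genes left out (adjusted p = 0.135). Acyl-CoA synthetase Acsbg1 had means of 153 ± 47 and 2792 ± 593.

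Id3 and Id4, inhibitors of differentiation that act downstream of BMP, fell by different amounts. Id3 read 745, 177 and 203 in activated cells against 2780, 2108, 3340 and 3472 (−3.18 ± 0.53, adjusted p = 0.0116). Id4 read 11036, 9172 and 8717 against 16865, 13565, 14546 and 16689, with a difference of only −0.68 ± 0.11 (adjusted p = 0.0084). Neither gene had overlapping groups, but Id4 failed the test with the dimmest 50% of genes left out (adjusted p = 0.263) and with genes near the limit left out (0.134).

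The members called against the list's direction were 3 genes that stem cells and progenitors also use. Nfix, a nuclear factor I gene tied to quiescence, was already high and rose to 19354, 18473 and 19944 from 6539, 7617, 10754 and 6549 (1.32 ± 0.21, adjusted p = 0.00894). Nfib read 2803, 2815 and 4140 against 1481, 1471, 1273 and 862 (1.35 ± 0.26, adjusted p = 0.021). Brain lipid-binding protein, Fabp7, read 8459, 7500 and 9028 against 5002, 4333, 2835 and 4014 (1.06 ± 0.24, adjusted p = 0.0402). All activated arrays were above all irradiated arrays for these genes. The number of such members was 1 without activated array 2, activated array 3 or irradiated array 3. Nfib lost its call without each of these arrays, with an adjusted p of up to 0.0707, and with the dimmest 50% of genes left out (0.055). Fabp7 lost it without any of 7 arrays (activated 1, 2 or 3, irradiated 2, 3 or 4, unirradiated 1), with an adjusted p of up to 0.127. It also lost it under scaling by the 75th percentile (0.0755), with either filter on low values (0.115 and 0.0615) and with only the compared groups in the fit (0.0521).

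Several markers used to define these cells did not pass the test. Gfap, the astroglial filament, read 152, 108 and 26 in activated cells against 2424, 300, 268 and 154 (−2.20 ± 1.26, adjusted p = 0.48). Irradiated array 1 was far above the others, and irradiated array 4 was close to the highest activated array. Prom1, which encodes a membrane protein of stem cells, read 381, 159 and 120 against 715, 119, 334 and 603 (−0.85 ± 0.75, adjusted p = 0.694). Sox2 had means of 2031 ± 229 (SD, n = 3) and 2594 ± 618 (n = 4), with overlapping arrays (−0.32 ± 0.25, adjusted p = 0.626). Sox9 was lower on all activated arrays, at 1883, 807 and 391 against 3403, 2779, 2974 and 3357, but did not pass (−1.87 ± 0.50, adjusted p = 0.0774). Hopx read 6, 4 and 174 against 92, 92, 681 and 157, and the tetraspanin Cd9 read 511, 560 and 315 against 716, 1021, 472 and 509, so both overlapped. Fut4, which encodes an enzyme among those that can form the LeX epitope, read 5 or 6 on all 7 arrays and gives no information here.

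**Figure D3:**
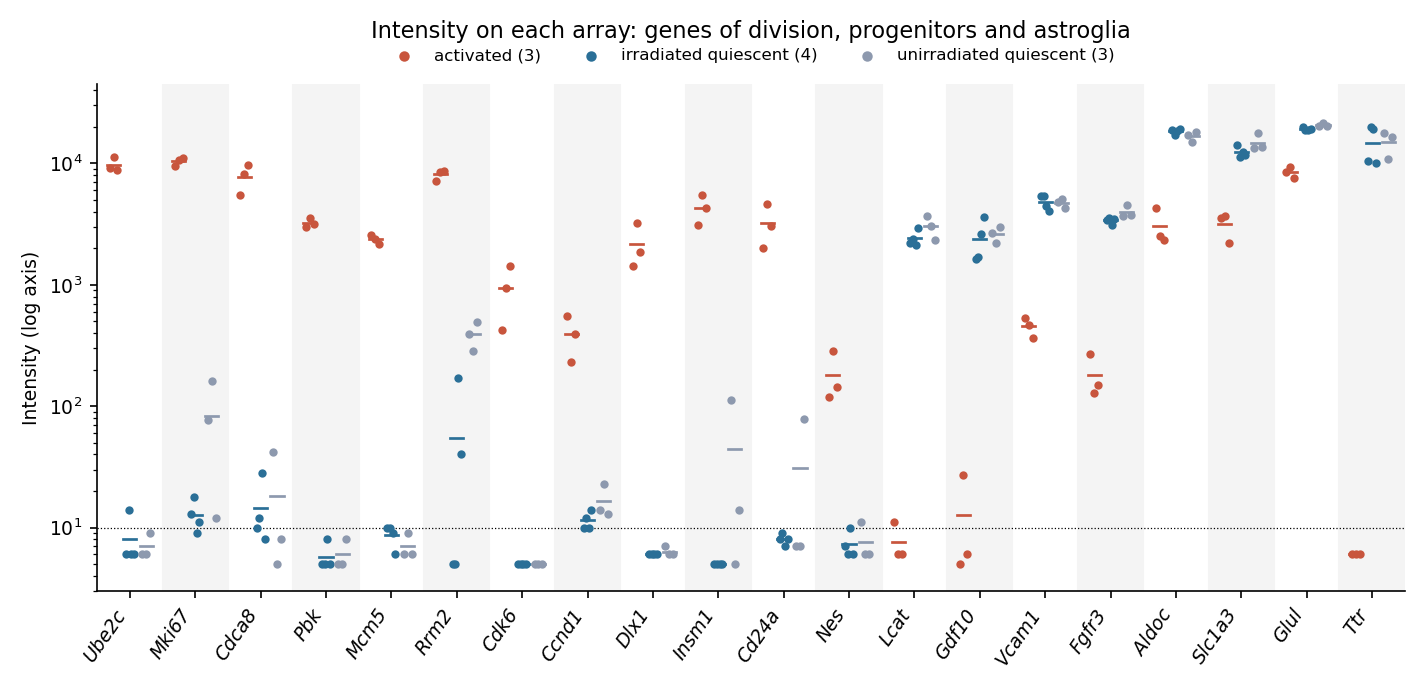
Intensity on each array (log axis) of 20 named genes, with each dot 1 array of activated (3), irradiated quiescent (4) or unirradiated quiescent (3) cells and a dotted line at an intensity of 10. Mitosis and replication genes sit near that line in irradiated cells and above 1000 in activated cells, whereas Glul differs by a small step at high intensity.

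Oligodendrocyte genes that passed the test were all lower in activated cells. Of 24 measured oligodendrocyte markers, 10 fell, none rose and 14 did not pass the test, with a median of −3.49. That count was 17 with the dimmest 50% of genes left out. The summed intensity of the list was 7328 to 11787 on the activated arrays, 36534 to 77501 on the irradiated arrays and 57928 to 83298 on the unirradiated arrays. Cnp, an enzyme of myelinating cells, read 1159, 1152 and 1519 in activated cells against 7190, 6108, 9781 and 6752 (−2.52 ± 0.19, adjusted p = 0.000289). The septin gene Septin4 read 7, 52 and 9 against 2087, 964, 4246 and 3244 (−6.09 ± 0.61, adjusted p = 0.00108). Ermn, a cytoskeletal gene of myelin, read 10, 9 and 24 against 450, 831, 2450 and 690. Myelin basic protein, Mbp, read 2263, 485 and 1568 against 5629, 7626, 7493 and 5730, and Mag read 9, 4 and 4 against 416, 75, 546 and 573. The myelin gene Omg, a leading fall among genes measured in both groups, read 234, 88 and 9 against 4906, 5734, 11840 and 7888 (−6.37 ± 0.75, adjusted p = 0.00232). In each of these genes every activated array was below every irradiated and unirradiated array. The defining markers Mobp and Mog did not pass. Mobp read 19, 6 and 1332 against 778, 2508, 2738 and 1969, so activated array 3 was above irradiated array 1, and Mog read 6, 8 and 8 against 18, 177, 154 and 506. The part of oligodendrocyte RNA in the fall of any other gene was not tested.

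Further leading falls among genes measured in both groups were Pla2g7 and Tcn2. Pla2g7, a phospholipase that degrades platelet-activating factor, read 70, 173 and 264 in activated cells against 6732, 9176, 7219 and 7564 (−5.53 ± 0.37, adjusted p = 0.000156). The cobalamin carrier Tcn2 read 444, 67 and 39 against 9118, 8283, 5260 and 8242 (−5.89 ± 0.70, adjusted p = 0.00248). From the largest falls of all genes, Mfap3l read 9, 28 and 31 against 5193, 2286, 3130 and 3855 (−6.54 ± 0.32, adjusted p = 3.13e-05).

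Markers of activated stem cells and transit amplifying cells checked the label of the activated arrays. Of 42 measured members, 20 rose, 2 fell and 20 did not pass the test (median 2.01), with 12 rises without activated array 2. Egfr, the receptor that marks activated stem cells, read 4490, 3359 and 4935 in activated cells against 790, 219, 830 and 935 in irradiated cells (2.76 ± 0.60, adjusted p = 0.0346). All activated arrays were above all irradiated arrays, and the unirradiated arrays, at 1338, 2488 and 683, spanned the gap. The call of Egfr was lost without any of 7 arrays (activated 1, 2 or 3, irradiated 1, 3 or 4, unirradiated 1), with an adjusted p of up to 0.112, and with only the compared groups in the fit (0.0579).

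Several other markers of this list read near the lower limit in irradiated cells. Dlx1, an interneuron lineage factor, read 1440, 3246 and 1875 against 6 on each irradiated array (6.56 ± 0.24, adjusted p = 6.23e-06). Insm1, a zinc finger factor of neuronal progenitors, read 3094, 5451 and 4249 against 5 on each (7.63 ± 0.57, adjusted p = 0.000289). Both were at the lower limit on all 4 irradiated arrays. Dlx2, the neighbour of Dlx1, read 6848, 7345 and 6052 against 964, 112, 13 and 543, and missed the threshold (4.99 ± 1.28, adjusted p = 0.067), as the irradiated arrays were widely spread. Tead2, a partner of YAP, read 311, 456 and 447 against 14, 6, 5 and 6. The intermediate filament gene Nes read 120, 283 and 143 against 7, 6, 10 and 6 (3.01 ± 0.25, adjusted p = 0.000502). Pclaf, the PCNA-binding factor, read 2299, 2984 and 2872 against 6, 11, 10 and 11.

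The members that fell were Rgcc and Olig1. Rgcc, a regulator of the cell cycle, read 31, 13 and 13 in activated cells against 787, 671, 1129 and 1291 (−4.81 ± 0.50, adjusted p = 0.00125). The oligodendroglial factor Olig1 read 256, 282 and 290 against 839, 1110, 1170 and 1070 (−1.86 ± 0.11, adjusted p = 9.28e-05). Neither gene had overlapping groups, and both stayed high on the unirradiated arrays.

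Part of the neuroblast markers were higher in the activated sort. Of 46 measured members, 12 rose, 2 fell and 32 did not pass the test (median 1.66), with 7 rises without activated array 2. Cd24a, the surface marker of neuroblasts and ependymal cells, read 2018, 4599 and 3052 against 8, 9, 7 and 8 (7.0 ± 0.52, adjusted p = 0.000276). Sox4 read 3128, 2651 and 2987 against 25, 51, 16 and 138 (5.59 ± 0.51, adjusted p = 0.000695). The groups were far apart for both. The RNA-binding protein gene Elavl4 read 462, 546 and 348 against 6 on each irradiated array, and its relative Elavl2 read 549, 1173 and 725 against 5 or 6. Bcl11a, a zinc finger factor of migrating neurons, read 546, 785 and 1436 against 45, 5, 5 and 5. Doublecortin, Dcx, read 489, 744 and 121 against 5 on each (4.16 ± 0.74, adjusted p = 0.015), with its call lost without activated array 1 (adjusted p = 0.0573) or 2 (0.0566). The part of neuroblasts in the activated sort in any other rise was not tested.

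The neuroblast markers that fell were weak calls. Tubb2b, a neuronal tubulin, read 9112, 10166 and 9656 against 14028, 11176, 14381 and 15433 (−0.50 ± 0.11, adjusted p = 0.0379). Tagln3 read 228, 84 and 65 against 2395, 552, 1218 and 427 (−2.89 ± 0.65, adjusted p = 0.0396). The call of Tubb2b was lost without any of 9 arrays (all but irradiated 2), with an adjusted p of up to 0.128, under quantile normalization (0.0965), with either filter on low values (0.414 and 0.276) and with only the compared groups in the fit (0.0927). That of Tagln3 was lost without any of 8 arrays (all but activated 1 and irradiated 4), with an adjusted p of up to 0.14, and with only the compared groups in the fit (0.113).

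Transcription factors of neuron subtypes and stem cells gave 10 rises and 2 falls among 57 measured members (median 0.37). The rises numbered 4 without activated array 2 and 6 without irradiated array 2, 3 or 4. Zbtb20, a zinc finger factor of progenitors and astrocytes, was a graded member, with 7993, 5950 and 6621 against 3774, 3347, 3053 and 2464 (1.12 ± 0.18, adjusted p = 0.0104), and an adjusted p of 0.0828 with the dimmest 50% of genes left out.

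Receptors and channels gave falls and no rise. Of 49 measured transmitter receptors, channels and transporters, 24 fell, none rose and 25 did not pass the test (median −2.0). The GABA-A receptor subunit Gabrb1 read 15, 260 and 42 in activated cells against 6434, 4743, 4101 and 4926 (−5.98 ± 0.67, adjusted p = 0.0019). Another subunit, Gabrg1, had means of 92.7 ± 88 (SD, n = 3) and 2982 ± 577 (n = 4). The glutamate receptor Grm3 read 1299, 688 and 1245 against 10478, 7782, 9168 and 9226 (−3.12 ± 0.24, adjusted p = 0.000324). The chloride channel Ttyh1 had means of 2441 ± 965 and 18456 ± 2354, a 7.56-fold ratio. For these 4 genes each activated array was below each irradiated array.

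Adhesion and matrix genes had falls and no rise. Of 87 measured members, 28 fell and 59 did not pass the test (median −1.09). Sparcl1, a matrix protein secreted by astrocytes, read 1954, 987 and 1106 against 13925, 14440, 13469 and 12282 (−3.37 ± 0.22, adjusted p = 0.000155). Timp3, an inhibitor of matrix proteases, fell 13.5-fold, with means of 519 ± 191 and 7021 ± 587. The heparan sulphate proteoglycan Sdc4 had means of 367 ± 129 and 4009 ± 1048. Hapln1, which links hyaluronan to proteoglycans, read 106, 49 and 85 against 2002, 2705, 4467 and 4230 (−5.11 ± 0.36, adjusted p = 0.00021). No values overlapped for these 4 genes.

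Most Notch genes did not pass the test. Of 31 measured members, 3 rose, 5 fell and 23 did not pass the test (median −0.51). That is 9.68% higher and 16.1% lower, against 3.4% and 3.68% of all genes. The falls numbered 2 without activated array 3, irradiated array 2 or irradiated array 4, and 3 without activated array 1 or 2, without irradiated array 1, or with only the compared groups in the fit. Among the rises were the ligands Dll1 and Jag1. Dll1 read 903, 504 and 114 in activated cells against 4 on every irradiated and unirradiated array (4.31 ± 0.58, adjusted p = 0.00422). Jag1 read 1184, 1466 and 1310 against 138, 47, 10 and 11 (4.70 ± 0.66, adjusted p = 0.00528). Hey1, a transcriptional target of the pathway, read 479, 782 and 278 against 5084, 2822, 6565 and 4711 (−3.24 ± 0.52, adjusted p = 0.00973). Dner, a Notch-binding membrane protein related to the Delta ligands, read 665, 665 and 649 against 3564, 3623, 2915 and 2855 (−2.26 ± 0.22, adjusted p = 0.00102). Activated and irradiated arrays did not overlap in any of the 4 genes, and ligands lay on both sides.

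Growth factor genes gave 2 rises, 8 falls and 44 that did not pass, of 54 (median −0.18). The share higher, 3.7%, was close to the 3.4% of all genes, and 14.8% were lower against 3.68%. The rises were Egfr, described above, and Cdon. The Hedgehog co-receptor Cdon read 1361, 1156 and 1848 in activated cells against 42, 24, 23 and 22 (5.07 ± 0.33, adjusted p = 0.000137). The unirradiated arrays lay between, at 386, 164 and 163. Fgfr2 read 497, 920 and 722 against 3769, 3049, 3797 and 3877 (−2.36 ± 0.20, adjusted p = 0.000509). Its ligand Fgf1 read 11, 11 and 8 against 726, 513, 496 and 235 (−4.19 ± 0.51, adjusted p = 0.00263). Together with Fgfr3, these FGF genes were all lower on every activated array.

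BMP and TGF-beta genes gave 1 rise, 5 falls and 39 that did not pass, of 45 (median −0.03). That is 2.22% higher and 11.1% lower, against 3.4% and 3.68% of all genes. The falls numbered 3 without activated array 2, without irradiated array 1, or with only the compared groups in the fit. Gdf10, Id3 and Id4, described above, were among the falls.

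Wnt genes gave 4 rises, 5 falls and 38 that did not pass, of 47 (median −0.02). That is 8.51% higher and 10.6% lower, against 3.4% and 3.68% of all genes. The rises numbered 2 without activated array 3 or irradiated array 2. The falls numbered 3 without activated array 2 and 8 with either filter on low values or the mean of probe sets. Beta-catenin, Ctnnb1, which also serves adherens junctions, had means of 12176 ± 986 (SD, n = 3) and 3561 ± 675 (n = 4), a 3.42-fold ratio. Among the falls were the receptors Lgr4 and Fzd2. Lgr4, the R-spondin receptor, read 150, 28 and 25 against 2125, 1491, 2045 and 1501 (−4.74 ± 0.55, adjusted p = 0.00224). Fzd2 read 935, 835 and 1322 against 5934, 7415, 6174 and 7073 (−2.69 ± 0.18, adjusted p = 0.000146). Tcf7l1, a repressor of Wnt targets, read 16, 11 and 20 against 184, 215, 89 and 300 (−2.65 ± 0.34, adjusted p = 0.00323), while the unirradiated arrays read 27, 26 and 26, close to activated cells.

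Genes of lipid and glucose metabolism that passed the test were all lower in activated cells. Of 39 fatty acid oxidation and acyl-CoA synthetase genes, 14 fell, none rose and 25 did not pass (median −1.55). The count was 9 without activated array 3 or irradiated array 4 and 8 without irradiated array 3. Acsl6, an acyl-CoA synthetase, read 765, 483 and 302 against 6440, 7100, 7706 and 7753 (−3.86 ± 0.27, adjusted p = 0.000196). The fatty acid transporter Slc27a1 had means of 778 ± 10.1 (SD, n = 3) and 6048 ± 1525 (n = 4). The mitochondrial dehydrogenase Acadvl had means of 261 ± 92.5 and 2037 ± 647, and no array of either gene crossed between groups.

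Cholesterol and fatty acid synthesis gave 7 falls, no rise and 29 that did not pass, of 36 (median −1.15). The sterol oxidase Msmo1 read 355, 187 and 539 against 3692, 4653, 3675 and 3715 (−3.50 ± 0.32, adjusted p = 0.000705). The desaturase Scd1 read 173, 64 and 114 against 1151, 1021, 542 and 486 (−2.61 ± 0.42, adjusted p = 0.00958). For Scd1 the unirradiated arrays were higher still, at 1532, 2094 and 1242.

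Glycolysis, glycogen and lactate genes gave 9 falls, no rise and 24 that did not pass, of 33 (median −1.16). Ppp1r3c, which targets a phosphatase to glycogen, read 4, 17 and 39 against 1208, 1328, 996 and 1449 (−5.24 ± 0.33, adjusted p = 0.000112). Lactate dehydrogenase Ldhb had means of 6430 ± 586 and 15660 ± 328, a 2.44-fold ratio. The glucose transporter Slc2a1, which endothelial cells also carry, had means of 2580 ± 560 and 13625 ± 3188.

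Oxidative phosphorylation had a single call. Of 59 measured members, none rose, 1 fell and 58 did not pass the test, with a median of −0.23. The member that fell was citrate synthase, Cs, with 2900, 4329 and 2930 against 6803, 7691, 7525 and 7784 (−1.16 ± 0.23, adjusted p = 0.0233). Its call was lost without any of 5 arrays (activated 1 or 3, irradiated 2, 3 or 4), with an adjusted p of up to 0.0861, by averaging its probe sets (0.158) and with the dimmest 50% of genes left out (0.0839).

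Lysosome and autophagy genes gave falls and no rise. Of 46 measured members, 15 fell, none rose and 31 did not pass the test (median −1.37). The sphingolipid activator precursor Psap read 1742, 1173 and 1532 against 6802, 11009, 9064 and 8168 (−2.55 ± 0.23, adjusted p = 0.000637). The peptidase Tpp1 had means of 715 ± 292 (SD, n = 3) and 5191 ± 913 (n = 4), a 7.26-fold ratio. The membrane proteins Lamp1 and Lamp2 fell less. Lamp1 had means of 2874 ± 633 and 7665 ± 705. Lamp2 read 1813, 1867 and 1587 against 4184, 4077, 4342 and 4384 (−1.27 ± 0.15, adjusted p = 0.00214), and the unirradiated arrays read 6967, 9664 and 6078, above both groups.

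Glutathione and redox genes gave 11 falls, 1 rise and 25 that did not pass, of 37 (median −1.21). The falls numbered 7 without activated array 2 and 6 with only the compared groups in the fit. Ephx1, an epoxide hydrolase, read 7 on each activated array against 909, 1799, 977 and 991 (−5.63 ± 0.61, adjusted p = 0.00157). Its unirradiated arrays read 318, 33 and 64, below every irradiated array. The extracellular dismutase Sod3 read 6, 9 and 9 against 584, 255, 1446 and 630 (−4.71 ± 0.49, adjusted p = 0.00134). The cystine transporter Slc7a11 had means of 66.7 ± 49.9 and 1808 ± 509. Metallothionein Mt1 had means of 2698 ± 1369 and 12366 ± 465 (−2.34 ± 0.34, adjusted p = 0.00623), but an adjusted p of 0.0714 with the mean of its probe sets. The riser was thioredoxin, Txn1, with 3051, 4011 and 3361 against 1584, 608, 1103 and 900 (1.79 ± 0.35, adjusted p = 0.022). It lost its call without any of 5 arrays (activated 1, 2 or 3, irradiated 3 or 4), with an adjusted p of up to 0.0886.

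Known targets of p53 were called at shares close to those over all genes. Of 40 measured p53 targets, 2 rose, 2 fell and 36 did not pass the test (median −0.03). That is 5% higher and 5% lower, against 3.4% and 3.68% of all genes. The risers were Btg2, described above, and Psrc1, a spindle protein that is also in the mitosis list. Psrc1 read 374, 187 and 421 in activated cells against 6, 8, 109 and 6 (3.23 ± 0.64, adjusted p = 0.0246), and lost its call without any of 5 arrays (activated 1 or 3, irradiated 1, 2 or 4), with an adjusted p of up to 0.089, and with only the compared groups in the fit (0.0871). The genes that fell were Sesn1, described above, and Tnfaip8, a regulator of cell survival. Tnfaip8 read 5 on each activated array against 310, 356, 125 and 136 (−3.43 ± 0.73, adjusted p = 0.0324), and lost its call without any of 8 arrays (all but unirradiated 1 and 2), with an adjusted p of up to 0.105, and with a pseudocount of 64 (0.0568).

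Cyclin G1, Ccng1, a p53 target, did not pass, with 425, 386 and 1630 against 1049, 832, 1646 and 1122 (−0.79 ± 0.52, adjusted p = 0.575). The unirradiated arrays read 254, 196 and 127, below every activated and irradiated array. The irradiated minus unirradiated difference was 2.50 ± 0.52, with an adjusted p of 0.594. Mdm2, the ubiquitin ligase of p53, read 650, 680 and 30 against 451, 112, 122 and 1969, which overlapped widely (−0.37 ± 1.69, adjusted p = 1).

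Apoptosis regulators gave 2 rises, 1 fall and 29 that did not pass, of 32 (median 0.01). Shares were 6.25% higher and 3.125% lower, against 3.4% and 3.68% of all genes. The risers were Birc5, described above, and the proapoptotic BH3 gene Bcl2l11, with 267, 222 and 160 against 27, 47, 4 and 10 (2.73 ± 0.44, adjusted p = 0.01). The fall was Bcl2, the antiapoptotic gene, with 286, 594 and 225 against 1559, 5701, 7573 and 1753 (−3.23 ± 0.66, adjusted p = 0.0274). No activated array reached an irradiated array for Bcl2, but the call was lost without any of 4 arrays (activated 1 or 3, irradiated 2 or 3), with an adjusted p of up to 0.0988, and with only the compared groups in the fit (0.0808).

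Interferon and class I genes gave 3 falls, no rise and 46 that did not pass, of 49 (median −0.35). Shares were 0% higher and 6.12% lower, against 3.4% and 3.68% of all genes. Ifit3, an interferon-induced gene, read 11, 6 and 8 in activated cells against 824, 390, 355 and 788 (−4.54 ± 0.59, adjusted p = 0.00374). Ifi27 read 70, 51 and 7 against 731, 1088, 343 and 452 (−3.58 ± 0.58, adjusted p = 0.0102). Both also read above the activated arrays on every unirradiated array, at 221, 145 and 847 for Ifit3 and 188, 222 and 421 for Ifi27. Tapbp, the peptide-loading factor, read 128, 625 and 32 against 4882, 2892, 1274 and 1401 (−3.78 ± 0.90, adjusted p = 0.0492). Its call was lost without any of 9 arrays (all but activated 2), with an adjusted p of up to 0.144, with a pseudocount of 1 (0.0551), by averaging its probe sets (0.143), with array weights (0.0855) and with only the compared groups in the fit (0.125). None of 33 inflammatory and NF-kB genes passed the test, and 16 of them were near the limit on all 7 arrays.

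Some immediate early genes were higher in the activated sort. Of 34 measured members, 9 rose, 1 fell and 24 did not pass the test (median 0.55). Fos read 4246, 4821 and 5726 in activated cells against 83, 63, 48 and 38 (6.09 ± 0.46, adjusted p = 0.000289). Egr1 read 10984, 10375 and 11415 against 9, 305, 91 and 242 (6.49 ± 0.98, adjusted p = 0.00775). The groups were far apart for both, and the unirradiated arrays lay between, at 244, 619 and 137 for Fos and 806, 1289 and 185 for Egr1. Ier2 read 210, 92 and 196 against 7 or 8, and Atf3 57, 37 and 32 against 5. These genes respond to growth factors and also to tissue dissociation, and the part of cell handling was not tested. The fall was the matricellular gene Ccn1, with 65, 49 and 33 against 1080, 1515, 1189 and 1303 (−4.33 ± 0.19, adjusted p = 1.95e-05), which did not pass with the mean of its probe sets (adjusted p = 0.268).

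Besides oligodendrocytes and neuroblasts, each marker list of other cells that a sort could hold gave at most 2 falls. The share lower was 13.3% for oligodendrocyte precursor, 10.5% for pericyte, 9.52% for choroid plexus, 8.7% for endothelial and 8.33% for ependymal markers. It was 3.7% for mature neuron markers and 0% for microglial and erythroid ones, against 3.68% of all genes. Among these lists, rises occurred only in ependymal markers, at 8.33% against 3.4% of all genes. Ttr, the transthyretin made by choroid plexus, had the lowest log2 difference of all genes. It read 6 on each activated array against 10376, 19809, 19041 and 9992 (−9.32 ± 0.30, adjusted p = 3.79e-06), and 17831, 10772 and 16624 on the unirradiated arrays. Without Ttr, the other choroid plexus markers summed to 115 to 329 on activated arrays and 454 to 1689 on irradiated arrays. The choroid plexus folate receptor Folr1 read 5 on all 10 arrays. Of 21 choroid plexus markers, 2 fell and 19 did not pass, the other fall being Trpm3, with 13, 18 and 19 against 476, 178, 463 and 307 (−3.42 ± 0.48, adjusted p = 0.00555).

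Vascular markers gave 2 falls among endothelial and 2 among pericyte genes. Endothelial markers summed to 4293 to 7173 on activated arrays and 18821 to 29605 on irradiated arrays. Without Slc2a1 and Bsg, which are not specific to endothelium, the sums were 833 to 2226 and 1655 to 6704. Bsg was the second of the 2 falls among 23 measured members (−1.84 ± 0.42, adjusted p = 0.0422), with its call lost without any of 8 arrays (all but activated 1 and 3), with an adjusted p of up to 0.0995, and with only the compared groups in the fit (0.112). The endothelial cadherin Cdh5 read 5 on all 7 compared arrays, while the tight junction gene Cldn5 read 45, 43 and 219 in activated cells against 54, 7, 5 and 5 (1.70, adjusted p = 0.399). Pericyte and mural markers summed to 898 to 1139 against 3447 to 9029. Without Pdgfrb the sums overlapped, at 745 to 1076 and 946 to 4112, and the pericyte gene Rgs5 read 688, 59 and 6 against 79, 43, 120 and 79. Pdgfrb, the pericyte receptor, read 66, 63 and 153 against 2612, 698, 6802 and 4468 (−4.74 ± 0.79, adjusted p = 0.0119), with an adjusted p of 0.0513 without activated array 2.

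Microglial markers gave no call among 22 genes. Their sum reached 7129 on an activated array and 2828 on an irradiated array, with Csf1r at 4, 126 and 2520 on the activated arrays and 4 on each irradiated array, while Aif1 read 5 or 6 and Ptprc 5 throughout. Cx3cr1, another microglial marker, read 49, 6 and 401 in activated cells against 6 or 7. Csf1r and Cx3cr1 were thus both highest on activated array 3. The count of genes called was 1043 without activated array 3. Erythroid genes summed to 25 to 27 on every array.

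Ependymal markers gave 2 rises, 2 falls and 20 that did not pass, of 24. Cd24a rose, as described above, and so did the dynein gene Dnah11, with 626, 352 and 207 against 5, 32, 5 and 5 (3.86 ± 0.42, adjusted p = 0.00157). Rarres2 fell, with 15, 126 and 15 against 2580, 2253, 705 and 878 (−4.76 ± 0.79, adjusted p = 0.0115). Riiad1 fell from 96, 60, 47 and 47 to 13, 18 and 9 (−1.39 ± 0.26, adjusted p = 0.0185), with its call lost without activated array 1 (0.0613) or activated array 3 (0.07). The ciliary marker Tmem212 read 4 on all arrays.

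Oligodendrocyte precursor markers summed to 1426 to 2182 against 5629 to 7024, and 2 of 15 fell, Olig1 and Cspg5. Without these 2 genes the sums overlapped, at 572 to 988 and 621 to 1595. Cspg5, a proteoglycan that astrocytes share, had means of 632 ± 281 (SD, n = 3) and 4256 ± 848 (n = 4). Mature neuron markers summed to 1044 to 1690 against 2430 to 7445, and 1 of 27 fell. That was Ppp1r1b, with 59, 7 and 29 against 436, 1360, 426 and 389 (−3.76 ± 0.82, adjusted p = 0.0352), and its call was lost without any of 8 arrays (all but unirradiated 1 and 2), with an adjusted p of up to 0.13, and with a pseudocount of 64 (0.0595). Beside each of these marker sums, the part of such cells in the falls described above was not tested.

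**Figure D4:**
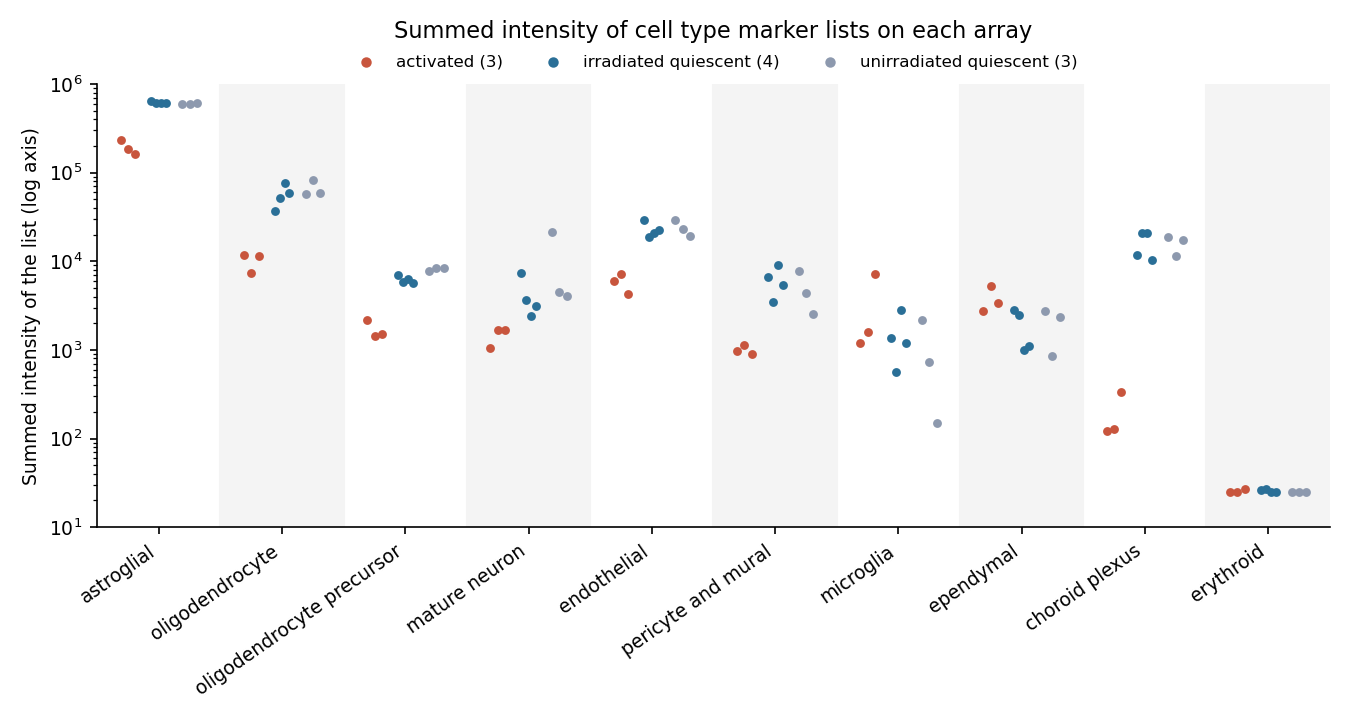
Summed intensity (log axis) of the measured markers of each cell type on every array, with dots for activated (3), irradiated quiescent (4) and unirradiated quiescent (3) arrays. Oligodendrocyte sums lie between 7328 and 11787 in activated cells and between 36534 and 77501 in irradiated cells, and erythroid sums between 25 and 27 throughout.

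The unirradiated arrays were used to test whether these differences depended on the choice of quiescent group. The test of the irradiated minus unirradiated difference, in the same limma fit, passed for 2 genes of 18193 (0.011%), while 720 genes had an unadjusted p under 0.05 (3.96% of all). Neither gene was called between activated and irradiated cells, and both are named here because of their values. Mrpl4, a mitochondrial ribosomal protein gene, read 449, 499, 576 and 546 on the irradiated arrays and 33, 28 and 79 on the unirradiated arrays (3.17 ± 0.27, adjusted p = 0.0454). Mgat4a, a glycosyltransferase gene, read 5, 5, 6 and 5 against 305, 304 and 157 (−3.62 ± 0.22, adjusted p = 0.00664). The quiescent groups did not overlap for either gene. Leaving out any single array moved this count between 0 and 44, with 44 without unirradiated array 4, 17 without unirradiated array 1 and 12 without unirradiated array 2. It was 1 without activated array 2 or 3 and 0 without irradiated array 1 or 2.

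A set of called genes chosen after their values were seen had irradiated and unirradiated arrays that did not overlap, or nearly so, but none of them passed that test across all genes. In some the unirradiated cells lay between irradiated and activated cells. For Srsf1 the irradiated minus unirradiated difference was −2.11 ± 0.33 (adjusted p = 0.369), for Cdon −2.45 ± 0.33 (0.261), for Rrm2 −3.11 ± 0.74 (0.772), for Nap1l1 −2.06 ± 0.60 (0.97) and for Fos −2.02 ± 0.46 (0.716). All 5 were lower on every irradiated array than on any unirradiated array. In Gas6, Ephx1 and Tcf7l1 the irradiated cells were instead higher, by 2.77 ± 0.53 (adjusted p = 0.515), 3.38 ± 0.61 (0.503) and 2.22 ± 0.34 (0.369). Against unirradiated cells these 3 genes did not pass in activated cells, with log2 differences of −1.33 (adjusted p = 0.309), −2.25 (0.113) and −0.43 (0.678). Passing against 1 quiescent group and not the other is no test of the difference between them. Npm1 and Nop10, the latter a snoRNP protein with 3492, 4593 and 5319 in activated cells against 1215, 2025, 1650 and 1433, were also higher in irradiated than in unirradiated cells, by 1.36 ± 0.23 (adjusted p = 0.384) and 1.05 ± 0.24 (0.748). Egfr differed by −1.09 ± 0.60 (adjusted p = 0.97) with overlapping arrays. A p that misses the threshold does not show that the quiescent groups were alike.

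**Figure D5:**
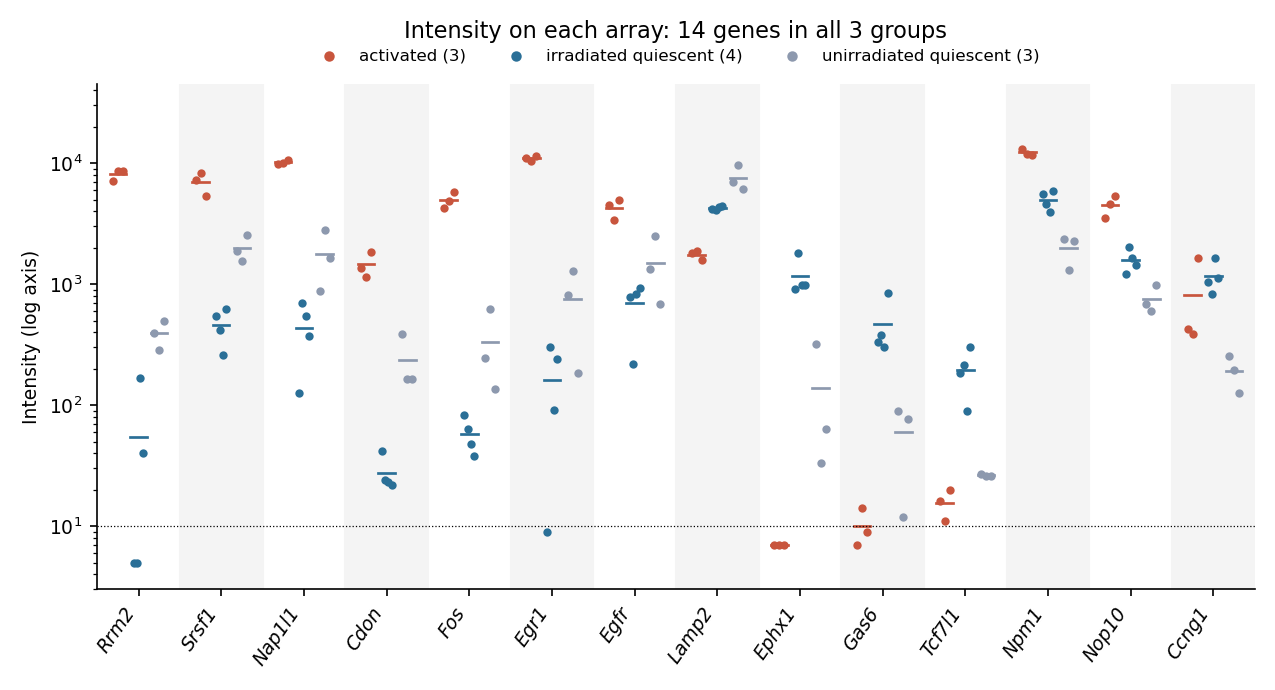
Intensity on each array (log axis) of 14 genes in activated (3 arrays), irradiated quiescent (4) and unirradiated quiescent (3) cells, with a dotted line at an intensity of 10; the genes were chosen for their values. Srsf1, Cdon and Rrm2 step up from irradiated to unirradiated to activated cells, while Gas6, Ephx1 and Tcf7l1 are highest in irradiated cells.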

How the data were processed

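The authors deposited 1 intensity per probe set and array, and per the labels' protocols the cDNA was amplified with NuGEN Ovation Pico before hybridisation. How probes were summarised and scaled is not given in the sources used here, and the values run from 3 to 34883. Of 45037 probe sets, 34945 had 1 gene symbol, 932 several and 9160 none. Each of 18193 genes took its single-symbol probe set with the highest mean over 10 arrays. In R 4.3.3, limma 3.58.1 fitted log2(intensity + 16) with 1 mean per group over 10 arrays (3 activated, 4 irradiated, 3 unirradiated), with eBayes and Benjamini-Hochberg adjustment over all genes, two-sided. The fit was tested on simulated data. No detection calls were used, so an intensity of at most 10 was treated as near the lower limit.

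Members and gene lists were chosen with earlier results of these data known. Named genes were the 12 largest rises and falls, the 10 largest with means above 100 in both groups, up to 5 called members per list by adjusted p, members called against their list, and fixed markers. The text gives part of them. Probe sets of a gene can disagree, so their mean was an alternative. The others were quantile normalization, 75th percentile scaling, pseudocounts of 1 and 64, filters on low values, trend and robust moderation, array weights, only the compared groups, the replicate number as a block, and each array left out. Promoters came from a RefSeq table of build GRCm38.p6. The series has 12 samples, and 2 columns held no values and were not used here.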

Additional observations from a re-analysis of the deposited data

Results flagged for a closer look

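Among the irradiated quiescent arrays, a gene or summed marker list was marked when its highest or lowest array lay apart from the other 3 by more than Dixon's critical share of the group's whole range. This was so for 21 of 155 tested genes and sums, and all 21 were genes. For normally distributed values about 1 in 20 groups would be marked by chance. That rate does not apply to intensities tied near the lower limit, as in Ube2c and Tk1, so no excess over chance can be read from the count. Irradiated array 1 was the array apart in 7 of the marked genes, array 2 in 6, array 3 in 6 and array 4 in 2.

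In several genes near the lower limit 1 irradiated array stood above it. Among cell cycle genes these were Ube2c at 14 on array 2, Mcm6 at 110 on array 4, Ung at 23 and Tk1 at 12 on array 1, and Timeless at 21 and Psrc1 at 109 on array 3. The repair genes Brca1 and Mdc1 read 33 and 97 on array 3. On array 1, Tead2 read 14, Bcl11a 45 and Cdon 42. Banf1 read 300 on array 3, and Dnah11 read 32 on array 2.

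Other arrays stood apart at higher intensity. On array 1, Gfap read 2424 and Hnrnpa0 1173. On array 2, Msmo1 read 4653, Ephx1 1799 and Ppp1r1b 1360, while Fgfr2 was lowest there at 3049. Hopx read 681 on array 3, and Gas6 read 853 on array 4. In every gene but Hopx, all irradiated arrays lay on the same side of all activated arrays. Gfap and Hopx did not pass the test, and the other 19 genes did.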

How the results depend on the processing

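The number of genes called was 1288, and it ranged from 1002 to 1751 over the processing alternatives other than the replicate block, and from 922 to 1218 with each array left out. With the replicate number as a block it was 675, of which 323 were higher and 352 lower. Same-numbered arrays did not deviate together (r = 0.017, −0.029 and 0.002), so the numbers were not taken to pair the samples. Of the 200 named genes that were called, 131 passed under all 21 alternatives and none reversed, while 52 were lost under the block, 22 with only the compared groups in the fit and 18 with the dimmest 50% of genes left out. Of 28 list counts of 5 or more, 5 stayed within 1.5 times everywhere. The irradiated minus unirradiated count of 2 became 1 under quantile normalization, trend and robust moderation or array weights, and 4 with a pseudocount of 1. It became 0 without genes near the limit, with only the compared groups, or under the block, and ran from 0 to 44 with each array left out. Reversals occurred in uncalled genes. The Mdm2 difference became 0.93 by averaging probe sets and 0.59 under the block, and ran from −1.03 to 0.93 with each array left out. That of Cdkn1a ran from −0.35 to 1.05. The cause of these changes was not tested. Depth is not a property of these arrays; 6290 genes near the limit on all 7 arrays could not show a fall.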
